A study of Homo sapiens with 6 samples.

Results

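Autophagy genes were examined in C4-2 cells, a castration-resistant prostate cancer line that descends from LNCaP. They were chosen by name: genes of initiation, nucleation, phagophore growth, conjugation, the ATG8 family and the autophagy receptors were looked up in the deposited expression table. Of 42 names, 41 had a row among the 28503 rows. ATG101 had none and is represented by its older symbol C12orf44. The names were taken by function, with no expression value in the rule, though earlier results of these data were known when they were chosen. The 41 genes comprise 27 of the core machinery, 5 ATG8 family genes, 6 receptor genes and 3 further members that act in fusion or regulation.

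The groups were cells given GSK126, cells given astemizole, cells given the vehicle of these compounds, cells infected with lentivirus for 1 of 2 EZH2 hairpins (EZH2 shRNA #1 and #2), and cells infected with lentivirus for a scramble shRNA. GSK126 is an inhibitor of the EZH2 methyltransferase. Astemizole, an antihistamine, has been reported to keep EZH2 from its partner EED. The sources used here give no doses or exposure times. The table has 1 column per treatment and a single EZH2 knockdown column, whose name gives no hairpin and whose making is not stated, so no condition has a second value and no difference below has a replicate check. No p-value or standard deviation is given for that reason.

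Macroautophagy encloses cytoplasm in a double membrane that later fuses with the lysosome. The ULK1 complex starts the process, a lipid kinase complex built on PIK3C3 and BECN1 marks the membrane, ATG9A and the ATG2 proteins supply lipid, and a ubiquitin-like conjugation system attaches ATG8 proteins to the growing membrane. ATG8 proteins (the LC3 and GABARAP groups) bind receptors such as SQSTM1, which carry cargo in and are degraded with it. Core proteins are largely reused, whereas ATG8 proteins and receptors are consumed.

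Levels are FPKM, fragments of transcript scaled to its length and to the mapped total, a per-length scale on which genes can be compared. Differences are log2 ratios of FPKM + 1, which understate the differences of low genes, and a gene is counted as higher or lower at 1.5-fold, which is 0.58 on the log2 scale. The background is the 12926 genes with 1 FPKM or more in at least 1 column, and 40 of the 41 autophagy genes are among them. The table holds no read totals, so absolute depth is unknown. The steps between low FPKM values put the worth of 1 read, relative to the vehicle column, at 0.949 for GSK126, 1.05 for astemizole and 0.858 for scramble shRNA. The EZH2 transcript stood at 17.5 FPKM with GSK126 and 9.48 with astemizole, against 26.5 with vehicle, and at 3.35 in the knockdown column, against 24.6 with scramble shRNA. All 10 prostate luminal markers, KLK3 and HOXB13 among them, were at the minimum level, and their summed level lay between 3454 FPKM with astemizole and 6036 with GSK126. Liver markers summed to 214 FPKM with GSK126 and 24.4 with vehicle, and to between 2.36 and 6.21 in the other 3 columns. The summed levels of 8 blood cell markers (1.87 to 10.1 FPKM), 6 fibroblast markers (1.40 to 3.28) and 6 neuroendocrine markers (1.99 to 5.55) were at most 10.1 FPKM in every column. The highest blood cell sum was that with GSK126, where LYZ stood at 7.57 FPKM against 1.03 with vehicle, and CD68 at 1.90 against 2.55. Of the neuroendocrine markers, SYP stood at 4.63 FPKM with knockdown against 0.51 with scramble shRNA, and ENO2 at 0.895 against 2.83.

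The 5 promoters below belong to the autophagy genes that differed at least 2-fold in any comparison with a matched control, all of them with astemizole. Each is the 250 bases before a transcription start in RefSeq (GRCh38.p14), 5′ to 3′, at the start nearest to the GENCODE principal transcript where the gene has several. The start used for MAP1LC3B, the only one in the table, lies 536 bases from the principal start, and those of the other 4 genes lie 5 to 146 bases from it. Capitals mark a match to 1 of 5 motifs described further on.
GABARAPL1, chr12:10212627-10212876, plus strand: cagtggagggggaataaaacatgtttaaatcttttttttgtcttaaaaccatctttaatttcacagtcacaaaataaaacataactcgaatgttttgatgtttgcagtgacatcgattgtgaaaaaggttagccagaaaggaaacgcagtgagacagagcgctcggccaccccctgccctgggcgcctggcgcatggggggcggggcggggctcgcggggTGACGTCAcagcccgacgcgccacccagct
MAP1LC3B, chr16:87392086-87392335, plus strand: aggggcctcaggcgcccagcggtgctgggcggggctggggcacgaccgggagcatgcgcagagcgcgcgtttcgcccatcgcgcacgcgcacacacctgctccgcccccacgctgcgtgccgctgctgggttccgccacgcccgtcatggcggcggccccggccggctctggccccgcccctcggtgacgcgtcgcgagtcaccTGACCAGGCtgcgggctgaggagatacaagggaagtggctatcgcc
SQSTM1, chr5:179820655-179820904, plus strand: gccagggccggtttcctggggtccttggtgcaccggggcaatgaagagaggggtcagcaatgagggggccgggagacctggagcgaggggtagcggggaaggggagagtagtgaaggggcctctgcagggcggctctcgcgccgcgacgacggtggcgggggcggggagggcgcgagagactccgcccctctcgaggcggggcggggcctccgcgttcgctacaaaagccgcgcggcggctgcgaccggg
OPTN, chr10:13099913-13100162, plus strand: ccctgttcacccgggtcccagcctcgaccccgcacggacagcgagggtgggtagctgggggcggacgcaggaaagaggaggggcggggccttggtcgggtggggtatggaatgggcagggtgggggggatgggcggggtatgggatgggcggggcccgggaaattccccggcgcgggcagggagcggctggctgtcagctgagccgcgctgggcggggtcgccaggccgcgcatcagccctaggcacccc
TP53INP2, chr20:34704094-34704343, plus strand: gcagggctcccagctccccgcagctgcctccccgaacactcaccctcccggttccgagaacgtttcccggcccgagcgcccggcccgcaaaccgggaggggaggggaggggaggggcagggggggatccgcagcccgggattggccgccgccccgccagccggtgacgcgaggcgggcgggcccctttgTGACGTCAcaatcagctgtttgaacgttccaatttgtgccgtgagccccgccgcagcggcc

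Astemizole against vehicle showed the clearest split between the classes. All 10 measured ATG8 and receptor genes had a log2 ratio above 0, 6 of them were at least 1.5-fold higher and 4 at least 2-fold higher, and their median log2 ratio was 0.76. For the 27 core machinery genes the median was 0.08, and 2 of them passed 1.5-fold upward and 1 downward. Over all 40 genes, 10 were at least 1.5-fold higher, or 25.0%, against 10.5% of all genes tested, and 1 was at least 1.5-fold lower, against 14.6%. The median of all genes tested was -0.06. At 2-fold, 5 of the 40 were higher and 0 lower, against backgrounds of 3.53% and 5.49%. Set against both control columns at once, astemizole was at least 1.5-fold higher for 7 of the 40 genes, against 8.12% of all genes, and lower for 0, against 8.32%. These 7 were MAP1LC3B, GABARAP, GABARAPL1, SQSTM1, OPTN, TAX1BP1 and TP53INP2, and none of them belongs to the core machinery. In bulk cultures fewer cells of a kind and less RNA per cell cannot be told apart.

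The ATG8 family encodes the proteins that are anchored in the membrane and hold the receptors. GABARAPL1 stood at 27.0 FPKM with GSK126 and 50.5 with astemizole, against 15.0 with vehicle, and at 34.6 in the knockdown column, against 17.0 with scramble shRNA. MAP1LC3B, which encodes the LC3 protein that is commonly used to mark autophagosomes, stood at 26.9 FPKM with GSK126 and 49.6 with astemizole, against 22.2 with vehicle, and at 36.1 with knockdown, against 21.9 with scramble shRNA. For both genes the 2 controls were the lowest columns and lay close together, and astemizole was the highest.
GABARAP, the most abundant of the 41 genes, stood at 418 FPKM with GSK126 and 713 with astemizole, against 385 with vehicle, and at 424 with knockdown, against 308 with scramble shRNA. GABARAPL2, which acts late in autophagosome maturation and in Golgi traffic, stood at 107 FPKM with GSK126 and 132 with astemizole, against 105 with vehicle, and at 149 with knockdown, against 88.0 with scramble shRNA. GABARAPL2 was the only one of the 4 that was highest with the knockdown.
The remaining family member, MAP1LC3A, was listed at 0 with vehicle and reached at most 0.429 FPKM, with astemizole, so it did not reach the minimum and no ratio is given for it. The near-identical copies MAP1LC3B2 and GABARAPL3 reached at most 0.132 and 0.0129 FPKM, so little signal was assigned to them in any column.

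**Figure D1:**
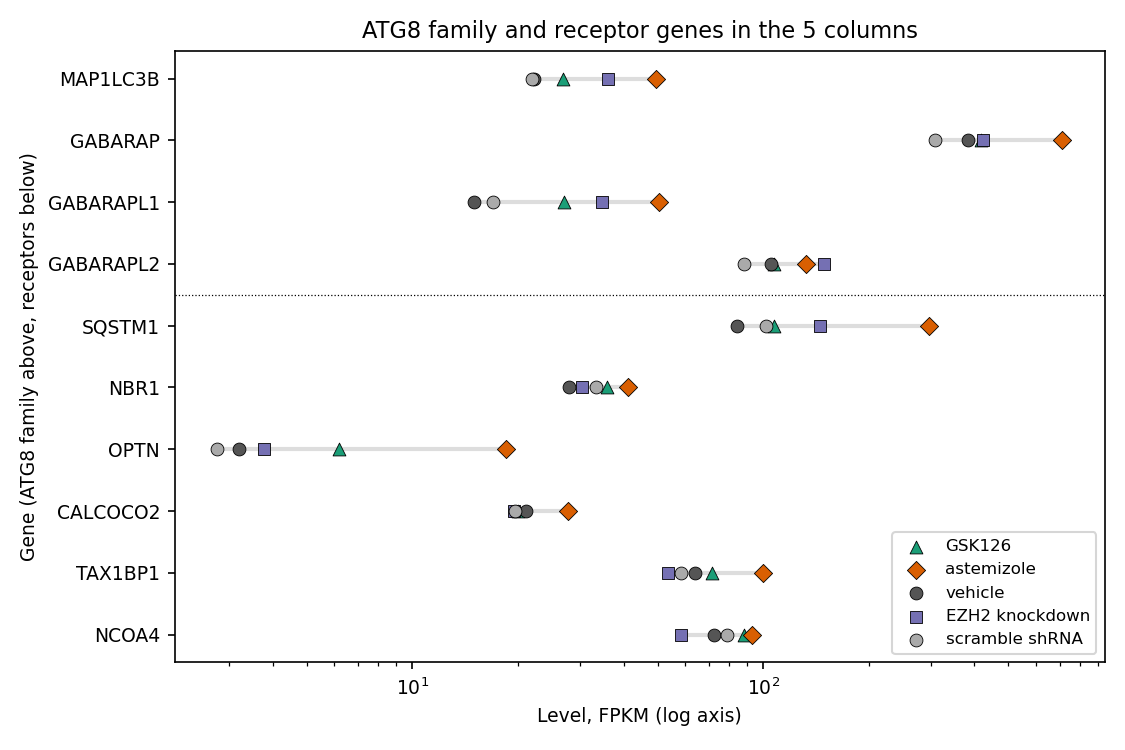
Level of each ATG8 family and receptor gene in the 5 columns, in FPKM on a log axis, with 1 symbol per column and a grey bar over the range. Astemizole is the rightmost symbol for 9 of the 10 genes, and GABARAPL2 is highest in the knockdown column.

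With astemizole the log2 ratios of the ATG8 genes were 1.69 for GABARAPL1, 1.13 for MAP1LC3B, 0.89 for GABARAP and 0.33 for GABARAPL2. The ratio of GABARAPL1 exceeded those of 99.4% of all genes tested and that of MAP1LC3B 97.5%. With knockdown the order was different: GABARAPL1 had 0.98, GABARAPL2 0.75, MAP1LC3B 0.70 and GABARAP 0.46. With GSK126 only GABARAPL1 passed 1.5-fold, at 0.81, while MAP1LC3B had 0.27, GABARAP 0.12 and GABARAPL2 0.03. Between the control columns, scramble shRNA over vehicle, these genes lay between -0.32 (GABARAP) and 0.17 (GABARAPL1). GABARAP in the knockdown column was therefore close to the vehicle column, at 424 and 385 FPKM.

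Summed over the 5 genes, ATG8 transcripts stood at 579.9 FPKM with GSK126 and 945 with astemizole, against 527 with vehicle, and at 644 with knockdown, against 435 with scramble shRNA. The sum was 1.79 times as high with astemizole as with vehicle, 1.48 times as high with knockdown as with scramble shRNA and 1.10 times as high with GSK126 as with vehicle. GABARAP made up between 65.9% of the sum (knockdown) and 75.4% (astemizole). GABARAPL1 made up 4.66% with GSK126 and 5.34% with astemizole, against 2.84% with vehicle, and 5.37% with knockdown, against 3.92% with scramble shRNA. Its share was thus larger in each treated column than in the matched control.

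**Figure D2:**
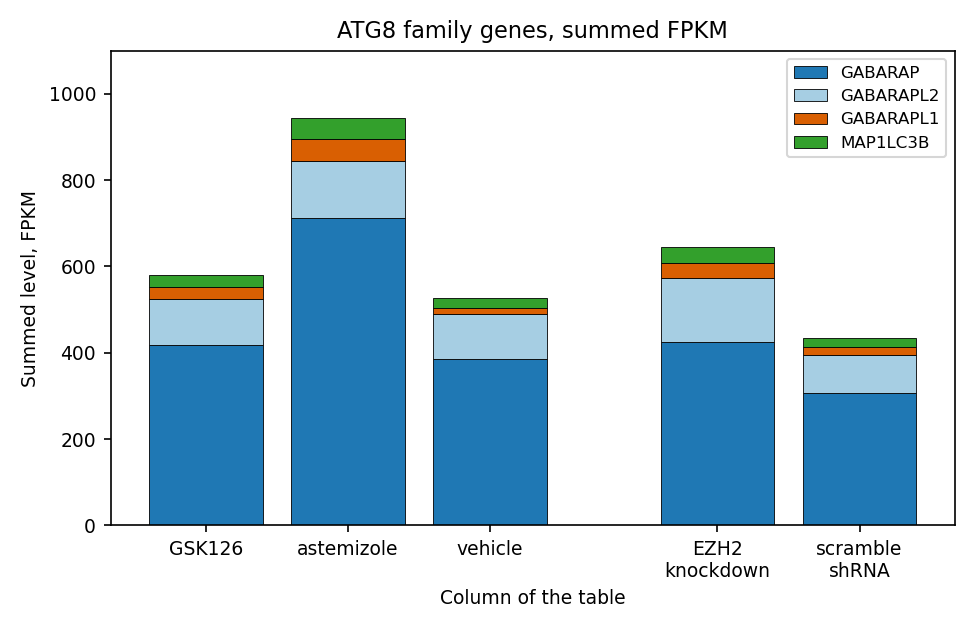
Summed FPKM of the ATG8 family genes in each column, stacked by gene, with bars starting at 0 (MAP1LC3A, at most 0.429 FPKM, is not drawn). The sum is 945 FPKM with astemizole and 644 with knockdown, against 527 with vehicle and 435 with scramble shRNA, and GABARAP is the largest share of every bar.

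Receptors tether ubiquitinated proteins, organelles or ferritin to ATG8 proteins. SQSTM1, the receptor p62 that gathers ubiquitinated protein and also binds KEAP1, stood at 107 FPKM with GSK126 and 297 with astemizole, against 84.2 with vehicle, and at 145 with knockdown, against 102 with scramble shRNA. OPTN, optineurin, a receptor for damaged mitochondria and bacteria, stood at 6.18 FPKM with GSK126 and 18.5 with astemizole, against 3.21 with vehicle, and at 3.78 with knockdown, against 2.77 with scramble shRNA. In both genes the astemizole column lay far above the other 4. OPTN had the highest log2 ratio of all 40 genes, 2.21 with astemizole, above 99.8% of all genes tested, and SQSTM1 had 1.81, above 99.6%.
TAX1BP1, a receptor for ubiquitinated aggregates, stood at 71.6 FPKM with GSK126 and 100.1 with astemizole, against 64.1 with vehicle, and at 53.6 with knockdown, against 58.2 with scramble shRNA. NBR1, which resembles SQSTM1 in its domains, stood at 35.9 FPKM with GSK126 and 41.2 with astemizole, against 27.9 with vehicle, and at 30.4 with knockdown, against 33.4 with scramble shRNA. TAX1BP1 passed 1.5-fold with astemizole, at 0.63, and NBR1 was just short of it, at 0.55.
CALCOCO2, the receptor NDP52, stood at 20.0 FPKM with GSK126 and 27.7 with astemizole, against 21.1 with vehicle, and at 19.4 with knockdown, against 19.6 with scramble shRNA. NCOA4, the receptor that delivers ferritin and a coactivator of the androgen receptor, stood at 88.3 FPKM with GSK126 and 93.2 with astemizole, against 72.3 with vehicle, and at 58.3 with knockdown, against 79.0 with scramble shRNA. With astemizole these 2 genes had log2 ratios of 0.38 and 0.36, so all 6 receptors were highest in that column.

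With knockdown the receptors did not follow the ATG8 family. The 4 measured ATG8 genes had a median log2 ratio of 0.72, and 3 passed 1.5-fold upward. For the 6 receptors the median was -0.07, and 0 passed 1.5-fold in either direction. SQSTM1 had 0.51 and OPTN 0.34, whereas NCOA4 had -0.43, NBR1 -0.13, TAX1BP1 -0.12 and CALCOCO2 -0.01. NCOA4, TAX1BP1 and CALCOCO2 were lower in the knockdown column than in any other. Against vehicle in place of scramble shRNA the ATG8 median was 0.59 and the receptor median 0.0030. In that setting 2 ATG8 genes and 1 receptor passed 1.5-fold upward. The receptor was SQSTM1, at 0.78, while GABARAPL2 fell short, at 0.50. With GSK126 the ATG8 median was 0.20 and the receptor median 0.31, and 1 gene of each group, GABARAPL1 and OPTN, passed 1.5-fold.

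**Figure D3:**
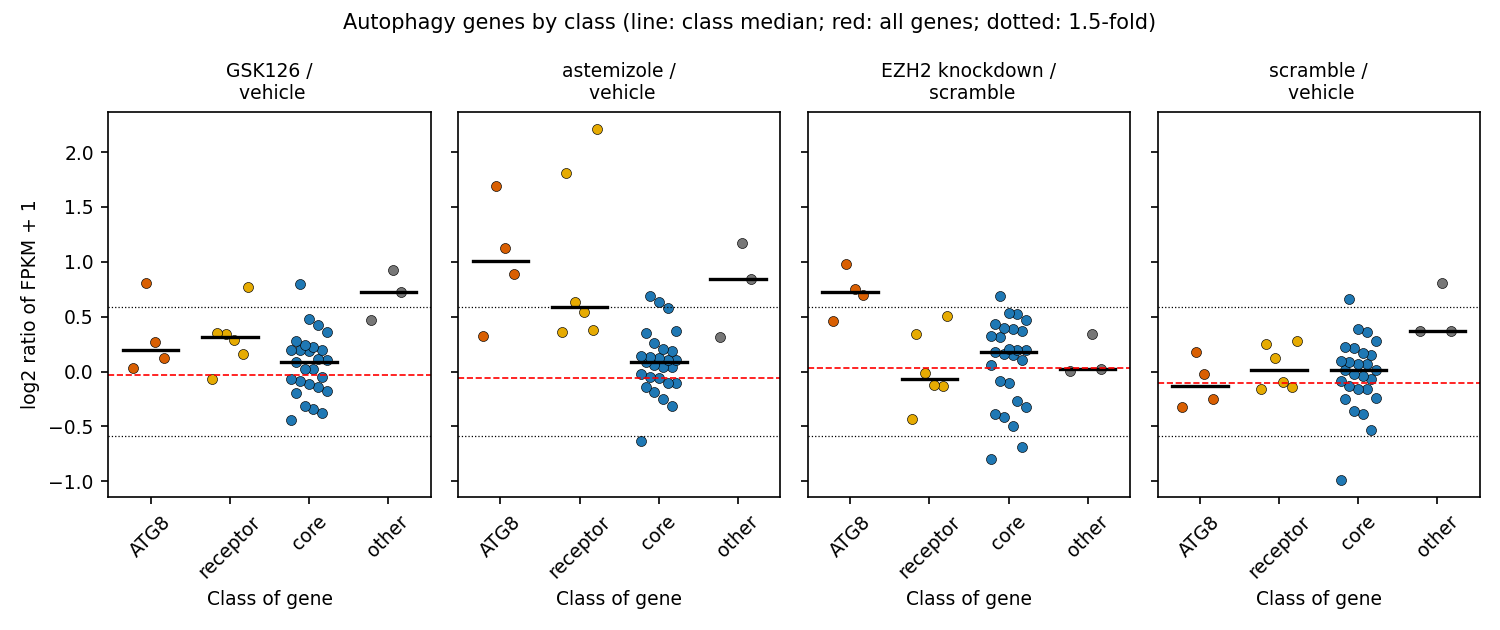
Log2 ratio of FPKM + 1 for each of the 40 genes, by class and comparison, with 1 point per gene, a black line at the class median, a red dashed line at the median of all genes tested and dotted lines at 1.5-fold. The ATG8 median is 1.01 with astemizole and 0.72 with knockdown, the receptor median 0.59 and -0.07, and the core median 0.08 and 0.18.

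The initiation genes encode the ULK1 kinase complex. ULK1, its kinase, stood at 6.87 FPKM with GSK126 and 6.30 with astemizole, against 5.88 with vehicle, and at 8.93 with knockdown, against 5.18 with scramble shRNA. RB1CC1, which encodes the scaffold FIP200, stood at 20.7 FPKM with GSK126 and 24.0 with astemizole, against 14.5 with vehicle, and at 22.9 with knockdown, against 16.2 with scramble shRNA. ULK1 passed 1.5-fold with knockdown, at a log2 ratio of 0.69, and RB1CC1 with astemizole, also at 0.69. With the other control column these ratios were 0.53 and 0.54, both short of the limit. RB1CC1 was higher in each treated column than in both controls, with 0.48 for GSK126 and 0.47 for knockdown. The remaining members, the kinase ULK2 and the adaptors ATG13 and C12orf44, lay between -0.38 and 0.37 in all 3 comparisons.

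The nucleation genes encode the PIK3C3 lipid kinase complex and its partners. None of the 6 reached 1.5-fold in any comparison with the matched control. Their log2 ratios lay between 0.02 and 0.36 with GSK126, between -0.14 and 0.26 with astemizole, and between -0.32 and 0.40 with knockdown. PIK3C3, the catalytic subunit, was the highest with GSK126 and with knockdown; it stood at 8.91 FPKM with GSK126 and 7.48 with astemizole, against 6.74 with vehicle, and at 12.4 with knockdown, against 9.14 with scramble shRNA. Its log2 ratio between the controls was 0.39, about as large as its ratio with knockdown. BECN1, the regulatory subunit, had 0.11, 0.05 and -0.27 with GSK126, astemizole and knockdown.

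The phagophore growth genes encode lipid carriers, the scramblase ATG9A and phosphoinositide-binding proteins. ATG9A stood at 9.38 FPKM with GSK126 and 9.26 with astemizole, against 10.0 with vehicle, and at 5.75 with knockdown, against 10.7 with scramble shRNA. Its log2 ratio with knockdown, -0.79, was the lowest of the 40 genes in that comparison, and the other 4 columns lay close together. ATG2B, a lipid transfer protein gene, stood at 6.49 FPKM with GSK126 and 5.66 with astemizole, against 3.31 with vehicle, and at 8.81 with knockdown, against 5.81 with scramble shRNA. ATG2B passed 1.5-fold with GSK126, at 0.80, and with astemizole, at 0.63, but scramble shRNA was also above vehicle, at 0.66. Against scramble shRNA the astemizole ratio of ATG2B was -0.032. Its paralogue ATG2A had 0.53 with knockdown and -0.53 between the controls, and its level of 7.32 FPKM with knockdown lay beside 7.31 with vehicle. WIPI1, which binds the marked membrane, had 0.58 with astemizole, just under the limit, and -0.42 with knockdown. VMP1, an endoplasmic reticulum scramblase gene, had -0.50 with knockdown, at 50.3 FPKM against 71.3 with scramble shRNA.

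The conjugation genes encode the enzymes that process ATG8 proteins and attach them to lipid. With astemizole their median was -0.08, and with GSK126 it was -0.10, which became 0.10 after rescaling the columns to equal sums (TPM). ATG4C, 1 of 4 proteases that cut ATG8 precursors, stood at 8.95 FPKM with GSK126 and 7.42 with astemizole, against 9.43 with vehicle, and at 4.80 with knockdown, against 8.32 with scramble shRNA. Its log2 ratio with knockdown was -0.68, and ATG4C and ATG9A were the 2 genes that the knockdown column held at least 1.5-fold below both controls. ATG4D, another of these proteases, stood at 27.6 FPKM with GSK126 and 22.3 with astemizole, against 35.1 with vehicle, and at 23.5 with knockdown, against 17.2 with scramble shRNA. ATG4D had -0.63 with astemizole, the only gene at least 1.5-fold lower there, but -0.99 between the controls, and against scramble shRNA its ratio was 0.36 with astemizole and 0.65 with GSK126. With knockdown it had 0.43 against scramble shRNA and -0.56 against vehicle. With knockdown the other 8 genes, among them ATG5, ATG7, ATG3 and the ATG8-like modifier ATG12, lay between -0.08 and 0.38. ATG5 had the lowest ratio with GSK126, -0.44, and a ratio of -0.36 between the controls.

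The 3 further members had medians of 0.72 with GSK126 and 0.85 with astemizole, 0.02 with knockdown and 0.37 between the controls. TP53INP2, which carries LC3 out of the nucleus, stood at 9.86 FPKM with GSK126 and 11.9 with astemizole, against 4.72 with vehicle, and at 8.38 with knockdown, against 6.41 with scramble shRNA. Its log2 ratios were 0.92 with GSK126, the highest of the 40 genes in that comparison, 1.17 with astemizole and 0.34 with knockdown. Against scramble shRNA the GSK126 ratio of TP53INP2 was 0.55, short of 1.5-fold. EPG5, a tether between autophagosome and lysosome, stood at 2.95 FPKM with GSK126 and 3.30 with astemizole, against 1.39 with vehicle, and at 3.21 with knockdown, against 3.19 with scramble shRNA. EPG5 passed 1.5-fold with both compounds, at 0.72 and 0.85, and scramble shRNA over vehicle gave 0.81, so the vehicle column alone was low. STX17, the fusion SNARE, had 0.47, 0.32 and 0.02, and 0.37 between the controls. Vehicle was the lowest column for all 3 genes.

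**Figure D4:**
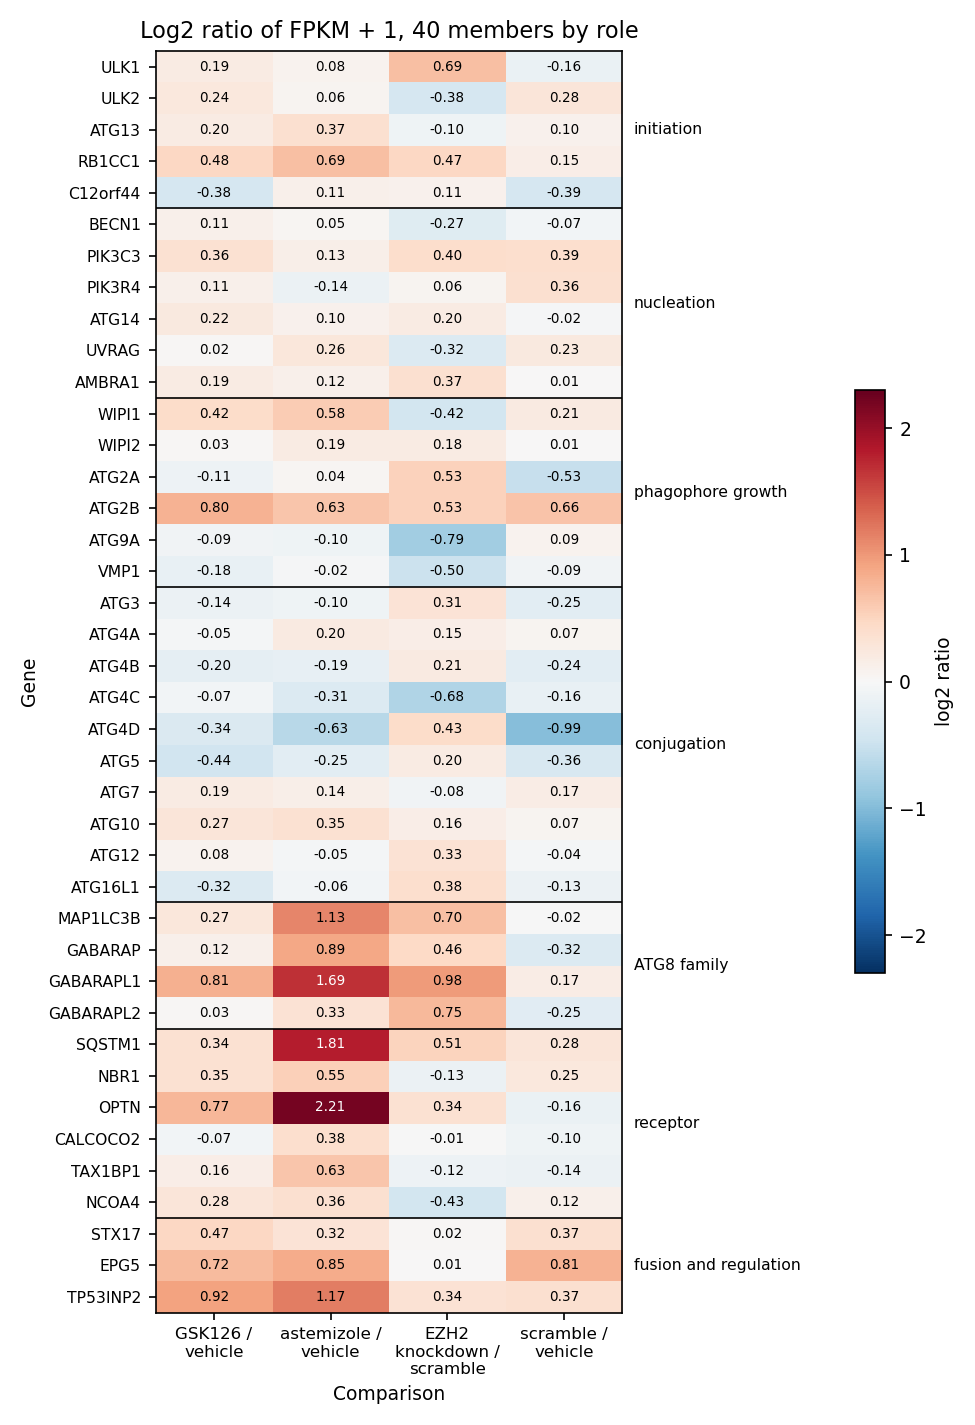
Log2 ratio of FPKM + 1 of the 40 measured genes, grouped by role, in the 3 comparisons with a treatment and between the controls (right column), with the value printed in each cell and blue to red for lower to higher. The strongest cells are OPTN, SQSTM1 and GABARAPL1 with astemizole, at 2.21, 1.81 and 1.69; ATG4D, EPG5 and ATG2B differ between the controls, at -0.99, 0.81 and 0.66.

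GSK126 against vehicle gave few differences, and it shares the vehicle column with the astemizole comparison. Of the 40 genes, 5 were at least 1.5-fold higher, or 12.5%, against 4.93% of all genes tested: TP53INP2, GABARAPL1, ATG2B, OPTN and EPG5. None was at least 1.5-fold lower, against 6.39%, and at 2-fold 0 were higher and 0 lower, against 1.05% and 0.952%. The ATG8 and receptor genes had a median of 0.28 and the core genes one of 0.08, with -0.04 for all genes. Against both controls at once only GABARAPL1 and OPTN were at least 1.5-fold higher, 2 of 40 against 2.51% of all genes, and 0 were lower, against 1.38%. Against scramble shRNA alone 3 were higher, or 7.5%, near the 6.0% of all genes in that setting. TPM rescaling moved the median of all genes by 0.19 and gave 8 of 40 higher and 0 lower, where 1545 and 377 of the 12926 genes tested were. Of all genes past 1.5-fold, 80.4% were then higher, against 43.5% without rescaling. Liver markers were higher in the GSK126 library, with albumin (ALB) at 28.7 FPKM against 4.18 with vehicle. Of 18 listed, 15 were at the minimum level, and 14 of these were at least 1.5-fold higher. Several of them, such as AHSG and RBP4, reached 1 FPKM in the GSK126 column only, so the minimum itself favoured that direction. The part of the liver markers in these results was not tested.

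The knockdown column against scramble shRNA had 4 of the 40 genes at least 1.5-fold higher, or 10.0%, against 8.19% of all genes tested, and 2 lower, against 11.7%. The upward share was near the background, and the downward share, 5% on 2 genes, was below it. The 4 were GABARAPL1, GABARAPL2, MAP1LC3B and ULK1, and the 2 were ATG9A and ATG4C. At 2-fold 0 were higher and 0 lower, against 1.93% and 5.11%, and GABARAPL1 came closest, at 1.97-fold. The median was 0.40 for ATG8 and receptor genes, 0.18 for core genes and 0.03 for all genes. Against vehicle in place of scramble shRNA 8 of 40 genes were at least 1.5-fold higher, against 8.42% of all genes in that setting, and the ATG8 and receptor median was 0.16. Against both controls at once only GABARAPL1 and MAP1LC3B were higher, 2 of 40 against 4.76% of all genes, and ATG9A and ATG4C lower, 2 of 40 against 10.3%.

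Scramble shRNA against vehicle is the only difference between columns in which EZH2 was not targeted. There 2 of the 40 genes, ATG2B and EPG5, were at least 1.5-fold higher, against 1.35% of all genes, and 1, ATG4D, was lower, against 4.67%. The median absolute log2 ratio of the 40 genes was 0.17, and for 10% of them it exceeded 0.40. The ATG8 and receptor genes had a median of -0.06 and the core genes one of 0.01, so the classes differed by -0.07 between the controls. The same difference was 0.68 with astemizole, 0.22 with knockdown and 0.19 with GSK126. The choice of control column changed which of the smaller ratios passed 1.5-fold, and those of OPTN, SQSTM1, GABARAPL1, MAP1LC3B and GABARAP with astemizole passed it with either control.

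**Figure D5:**
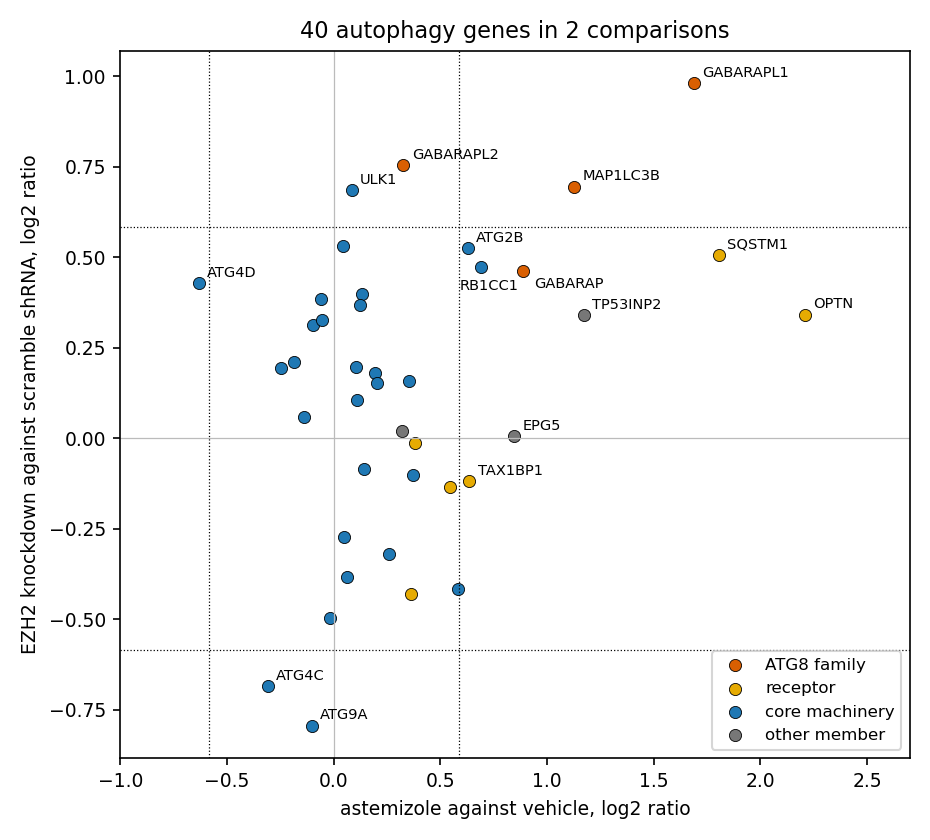
Log2 ratio of FPKM + 1 of the 40 genes with astemizole against vehicle (horizontal axis) and with knockdown against scramble shRNA (vertical axis), coloured by class, with dotted lines at 1.5-fold. GABARAPL1 (1.69 and 0.98) and MAP1LC3B (1.13 and 0.70) are past the line on both axes, OPTN and SQSTM1 with astemizole alone, and ATG9A and ATG4C lie at the bottom.

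Astemizole against GSK126 compares the compounds without either control. Of the 40 genes 5 were at least 1.5-fold higher with astemizole, or 12.5%, against 6.98% of all genes tested, and 0 were lower, against 8.39%. At 2-fold 2 were higher, against 2.19%, and 0 lower, against 3.28%. The 5 were SQSTM1 at 1.46, OPTN at 1.44, GABARAPL1 at 0.88, MAP1LC3B at 0.86 and GABARAP at 0.77. For the 27 core genes the median was 0.01, and 0 passed 1.5-fold in either direction. The ATG8 and receptor genes had a median of 0.62. Their doses and times may differ, since neither is given.

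The promoters shown above were searched on both strands for 4 motifs taken from factors known to act on autophagy genes: CACGTG and its longer form TCACGTGA, which MiT/TFE factors such as TFEB bind; TGACNNNGC, the core bound by NRF2; and TGATGNAA, a core bound by ATF4 dimers. Promoters were matched for 35 of the 41 genes. In the same windows of all 35116 starts, 6.34% held CACGTG, 0.854% TCACGTGA, 10.9% TGACNNNGC and 3.14% TGATGNAA. These are shares of starts, whereas an autophagy gene was counted if any of its starts held the motif, so the units differ. Among the 35 genes CACGTG was found in ATG3 and ATG14, TGACNNNGC in MAP1LC3B, CALCOCO2 and ATG101, and the other motifs in 0. Of the 5 promoters shown, MAP1LC3B held TGACNNNGC, beginning 46 bases before that start, and those of SQSTM1 and OPTN held none. The motif TGACGTCA, to which CREB and ATF factors bind, was added after the sequences were read. It was found in GABARAPL1, 30 bases before the start, and in TP53INP2, 61 bases before, and in 1.65% of all starts. CACGTG is contained in TCACGTGA, and a match is only a run of letters.

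Other genes of the pathway were examined by list, and each count is to be read beside the share of all genes past the same limit: 4.93% upward and 6.39% downward with GSK126, 10.5% and 14.6% with astemizole, and 8.19% and 11.7% with knockdown. Among 16 measured further core genes, 2 passed 1.5-fold upward and 0 downward with astemizole (median 0.10), 0 and 0 with GSK126 (0.07), and 2 and 0 with knockdown (0.02). With astemizole these were ZFYVE1, whose product marks sites of phagophore formation, at 0.92, and the ATG2 partner gene WDR45 at 0.85. With knockdown they were the kinase gene ULK3 at 0.73 and the phosphatase gene MTMR14 at 0.59. The 2 of 16, or 12.5%, were near the 10.5% of all genes with astemizole and the 8.19% with knockdown. MTMR14 had 0.36 against vehicle, short of the limit.

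A further list held ATG8 genes, selective receptors and genes that act with them, such as KEAP1 and the kinase gene TBK1. Its ATG8 genes, MAP1LC3B2, MAP1LC3C and GABARAPL3, were below the minimum level, so the 18 measured genes include no ATG8 gene. Among these 18, 5 passed 1.5-fold upward and 1 downward with astemizole (median 0.27), 0 and 2 with GSK126 (0.03), and 1 and 2 with knockdown (-0.06). Upward this was 27.8% with astemizole, against 10.5% of all genes, and 5.56% with knockdown, against 8.19%. Downward it was 11.1% with knockdown, against 11.7%. STBD1, a glycogen receptor, stood at 36.1 FPKM with astemizole against 10.6 with vehicle (1.68). The mitophagy kinase PINK1 had 1.22 and the endoplasmic reticulum receptor FAM134B 0.99. BNIP3, a mitophagy receptor and a known hypoxia-induced gene, was lower in all 3 comparisons. It stood at 228 FPKM with GSK126 and 173 with astemizole, against 400.0 with vehicle, and at 167 with knockdown, against 558 with scramble shRNA. TEX264, another endoplasmic reticulum receptor, had -0.60 with GSK126 and -0.61 with knockdown, and the adaptor TOLLIP had 0.74 with knockdown. With the other control column TOLLIP had 0.22 with knockdown and TEX264 had -0.28 with GSK126, both short of the limit.

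Of 13 measured fusion genes, 6 passed 1.5-fold upward and 0 downward with astemizole (median 0.52), 1 and 0 with GSK126 (0.19), and 1 and 0 with knockdown (0.25). The share upward was 46.2% with astemizole, against 10.5% of all genes, while 1 of 13, or 7.69%, was near the 4.93% with GSK126 and the 8.19% with knockdown. With astemizole VPS41, a tethering complex subunit, had 1.05, RILP, an effector of the late endosome GTPase, had 0.96, RAB7A, that GTPase itself, had 0.78 and VPS11 had 0.73. VPS41 was also the fusion gene past 1.5-fold with GSK126, at 0.73, which was 0.41 against scramble shRNA.

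Of 29 genes of the kinase complex mTORC1, which restrains autophagy, and of its inputs, 11 passed 1.5-fold upward and 0 downward with astemizole (median 0.37), 6 and 0 with GSK126 (-0.02), and 6 and 1 with knockdown (0.23). Upward this was 37.9% with astemizole, against 10.5% of all genes, and 20.7% both with GSK126, against 4.93%, and with knockdown, against 8.19%. With astemizole the Rag GTPase genes RRAGD and RRAGC had 1.53 and 1.25, FLCN, which acts on them, had 1.13, and the stress-induced inhibitor SESN2 had 1.34. SESN2 also had 1.46 with knockdown and -0.23 with GSK126. SESN1, a p53 target, had 1.17 with GSK126, 0.86 with astemizole and 2.17 with knockdown, where it stood at 100.2 FPKM against 21.4 with scramble shRNA. SESN3 had 1.38 with GSK126, 0.20 with astemizole and 1.28 with knockdown. The inhibitor gene DDIT4 had -0.81 with knockdown and -0.49 with GSK126, but 0.72 with astemizole. FNIP2 and FNIP1 had 0.79 and 0.76 with GSK126, which were 0.44 and 0.36 against scramble shRNA, short of the limit.

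Of 10 AMPK genes, whose kinase activates ULK1, 1 passed 1.5-fold upward and 2 downward with astemizole (median -0.08), 0 and 0 with GSK126 (0.03), and 0 and 2 with knockdown (0.13). With so few genes, 1 of 10 upward lay at the 10.5% of all genes with astemizole, and 2 of 10 downward stood beside 14.6% with astemizole and 11.7% with knockdown. CAMKK2, an AMPK-activating kinase and an androgen-induced gene, stood at 20.0 FPKM with astemizole against 45.2 with vehicle, and at 19.3 with knockdown against 49.4 with scramble shRNA. The gene past 1.5-fold upward with astemizole was PRKAB1, at 0.66, which was 0.49 against scramble shRNA, short of the limit. A list of BCL2 family and related genes had 4 measured members, BCL2L1, BCL2L2, MCL1 and BNIP1. Their medians were 0.25 with astemizole, -0.02 with GSK126 and 0.11 with knockdown, and the only one past 1.5-fold was BCL2L1, at -0.70 with knockdown.

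Of 11 measured transcription factor genes, 3 passed 1.5-fold upward and 2 downward with astemizole (median 0.36), 1 and 1 with GSK126 (-0.02), and 2 and 3 with knockdown (0.08). Upward this was 27.3% with astemizole, against 10.5% of all genes, 9.09% with GSK126, against 4.93%, and 18.2% with knockdown, against 8.19%. Downward it was 18.2% with astemizole, against 14.6%, 9.09% with GSK126, against 6.39%, and 27.3% with knockdown, against 11.7%. FOXO3, which activates several autophagy genes, stood at 18.8 FPKM with GSK126 and 22.0 with astemizole, against 11.1 with vehicle, giving 0.71 and 0.92, of which the GSK126 ratio was 0.55 against scramble shRNA. With astemizole ATF4 had 0.94, and its target DDIT3 stood at 85.6 FPKM against 29.5 with vehicle. Between the controls ATF4 had -0.66 and DDIT3 -0.80. DDIT3 also passed 1.5-fold with knockdown, at 0.76, but had -0.04 against vehicle. MITF was lower in all 3 comparisons, at -1.61 with GSK126, -0.87 with astemizole and -1.46 with knockdown, and its astemizole ratio was -0.31 against scramble shRNA. TFEB, a regulator of lysosome and autophagy genes, had -0.54 with GSK126, -0.85 with astemizole and -0.88 with knockdown, and -0.57 between the controls. Its relative TFE3 had 0.61 with knockdown, which was 0.35 against vehicle. The 2 genes past 1.5-fold upward with knockdown were thus DDIT3 and TFE3, and neither passed it against vehicle.

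The sources used here do not say whether the libraries keep strand, so reads of overlapping genes on opposite strands cannot be told apart if they do not. In the GENCODE annotation 22 of the 41 genes share exon sequence with another gene, 20 of them with a gene on the opposite strand. The other 2, GABARAP and ATG9A, share it with a gene on the same strand, where keeping strand would not separate the reads. Whether this changed their values was not tested. MGAT4B, next to SQSTM1, had -0.22 with astemizole, CCDC3, next to OPTN, was at most 0.883 FPKM in any column, and FBXO31, next to MAP1LC3B, had -0.10. KRI1, next to ATG4D, had -0.74 with astemizole, close to the -0.63 of ATG4D, and whether reads were shared was not tested.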

How the data were processed

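Polyadenylated RNA of C4-2 cells was sequenced in 6 libraries, and the authors deposited 1 table of FPKM values with 5 columns, per the labels. TopHat2, Cuffdiff and hg19 stand in the submitters' processing notes, without versions. Annotation, strandedness and the making of the knockdown column were not given in the sources used here. Of 28503 rows, 27 date-like names and 1714 short noncoding RNA genes were left out, and genes at 1 FPKM or more in any column were kept. Log2 ratios used a pseudocount of 1 FPKM (Python 3.11.15, pandas 2.3.3, figures with matplotlib 3.10.9), and the steps were tested on simulated data. No test was run, because each condition has 1 value. Every autophagy gene was accounted for; all ATG8 and receptor genes and every other member past 1.5-fold were named with all values, and of the other lists up to 4 genes past 1.5-fold and at 5 FPKM or more per comparison. The members and lists were chosen with earlier results of these data known. Promoters were taken from RefSeq (GRCh38.p14) and gene overlaps from GENCODE release 29, since coordinates of the authors' build were not used here. Alternatives were another pseudocount, no filter or a stricter one, TPM rescaling, median centring and the other control column.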

Additional observations from a re-analysis of the deposited data

How the results depend on the processing

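Each result was recomputed with 0.1 FPKM as pseudocount, the same with no filter, a minimum of 5 FPKM, TPM rescaling, median centring and the other control column; no library could be left out, since no condition had a second value. A median was taken as moved when it changed by more than 0.17, the median absolute log2 ratio between the controls, and a count when it changed by more than 1.5 times. With the other control column, the ATG8 and receptor median was 0.96 with astemizole and 0.16 with knockdown, 3 genes passed 1.5-fold upward with GSK126 and 8 with knockdown, and 0 were lower with astemizole. The matching shares of all genes in that setting were 6%, 8.42% and 10.5%. Of ratios past 1.5-fold, that control reversed those of ATG2B (-0.032) and ATG4D (0.36) with astemizole and of EPG5 with GSK126 (-0.086), genes in which the controls themselves differed. TPM rescaling gave medians of 0.49 for ATG8 and receptor genes and 0.29 for core genes with GSK126, and 8 genes higher, against 12% of all genes. Median centring left 0 genes lower with astemizole, against 12.6% of all genes. Set against both controls at once, an alternative chosen after seeing the data, 2 genes were higher with GSK126, 2 with knockdown, and 0 lower with astemizole. The matching shares of all genes were 2.51%, 4.76% and 8.32%. The count higher with astemizole stayed between 7 and 12 under every alternative, while the share of all genes moved between 8.12% and 13.6%. Against scramble shRNA 6 of 10 ATG8 and receptor genes, 0 of 27 core genes and 1 of 3 further members were higher. In that setting 13.3% of all genes were. Of 321 recomputed log2 ratios of 18 named genes, 270 moved by less than 0.17. In all 13 changed sign: the 3 above, which were past 1.5-fold as reported, and 10 that were short of it. Among those 10, with the other control column, ATG4D had 0.65 with GSK126, past 1.5-fold, and -0.56 with knockdown, and NBR1 had 0.12 with knockdown. Of 44 values of named genes from the other lists, 33 stayed past 1.5-fold in the same direction with the other control column, also an alternative chosen after seeing the data, and 11 did not. A cause was not tested. Without read totals no counting error can be given, which limits the low genes, such as EPG5 and OPTN, most.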
